A study of Homo sapiens with 4 samples.

Results

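The ion channel genes described here were chosen by symbol: those starting with KCN, CACN, HCN or CLCN, or with SCN, TRPC, TRPM or TRPV followed by a digit. Of 14884 genes with a named probe set, 18 met this rule. They were measured on 4 Affymetrix Human Gene 2.0 ST arrays in SH-SY5Y cells, a human neuroblastoma line of sympathetic lineage. One group of 2 arrays came from cells given origamicin at 30 µM for 24 h, a compound that the submitters describe as inhibiting protein disulfide isomerase. The other group of 2 came from mock cells, which had methanol, the solvent, for 24 h. Replicates are labelled as biological, but nothing says that they were separate cultures, so the p-values reflect only how far these arrays differ, which may be technical. All 4 arrays come from 1 cell line.

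The symbols cover less than a list of voltage-gated and TRP channels would. The 18 genes held 3 pore-forming subunits, HCN2, HCN3 and HCN4. A further 5 encode partners or regulators of potassium channels: KCNIP1, KCNIP2, KCNIP4, KCNE5 and KCNRG. The other 10 carry a channel's name without encoding a channel: 9 long noncoding RNAs, and TRPC5OS, a coding gene on the strand opposite TRPC5. The set therefore holds no TRP, CLCN or SCN channel. Other KCN and CACN subunits were not analysed here, and some channels with other symbols are described at the end. It is called the HCN channels, potassium channel partners and channel-named transcripts in what follows.

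HCN channels open when the membrane becomes more negative and pass a mixed sodium and potassium current that helps to set the resting potential and rhythmic firing of neurons and heart cells. Cyclic AMP bound to their cytoplasmic tail eases opening. KCNIP proteins bind calcium and Kv4 potassium channels, and KCNE proteins are single-pass membrane subunits that alter the gating of potassium channels. Antisense and imprinted transcripts lie within or beside channel genes, and some of them act on the expression of their locus.

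The promoters of the 3 HCN genes are shown first, because HCN3 had the strongest evidence of a difference between the groups and HCN2 and HCN4 are its relatives on the array. Each run covers 250 bases before to 50 bases after the gene's start in RefSeq (build GRCh38.p14), 5′ to 3′ on the gene's strand. Capitals mark a GC box (GGGCGG, or CCGCCC when read from the other strand) and, in HCN2 only among these 3, the EGR1 motif GCGGGGGCG, which overlaps GC boxes.
HCN3 (chr1:155277213-155277512, plus strand): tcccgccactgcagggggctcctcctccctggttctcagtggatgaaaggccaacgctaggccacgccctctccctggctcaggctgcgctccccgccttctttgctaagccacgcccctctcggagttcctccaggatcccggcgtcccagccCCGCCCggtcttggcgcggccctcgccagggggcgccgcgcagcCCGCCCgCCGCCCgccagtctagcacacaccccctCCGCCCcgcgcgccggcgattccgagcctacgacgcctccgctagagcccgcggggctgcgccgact
HCN2 (chr19:589631-589930, plus strand): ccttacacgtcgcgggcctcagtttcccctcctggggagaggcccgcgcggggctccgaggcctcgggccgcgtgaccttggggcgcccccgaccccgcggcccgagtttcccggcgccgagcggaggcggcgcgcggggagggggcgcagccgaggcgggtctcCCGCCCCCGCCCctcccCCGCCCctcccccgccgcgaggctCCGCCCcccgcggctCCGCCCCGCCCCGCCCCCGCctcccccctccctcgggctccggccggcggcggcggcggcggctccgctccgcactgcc
HCN4 (chr15:73368909-73369208, minus strand): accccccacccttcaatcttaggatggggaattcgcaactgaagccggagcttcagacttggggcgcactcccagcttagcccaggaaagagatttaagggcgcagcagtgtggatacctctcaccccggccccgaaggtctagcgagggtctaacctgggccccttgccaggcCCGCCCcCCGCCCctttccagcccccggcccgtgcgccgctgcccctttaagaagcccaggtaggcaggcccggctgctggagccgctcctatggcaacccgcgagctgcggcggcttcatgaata

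All 3 windows were rich in G and C, with 74.0% of bases in HCN3, 84.7% in HCN2 and 65.0% in HCN4, against a median of 58.7% over the 35116 promoters in the table. GC boxes numbered 4 in HCN3, 7 in HCN2 and 2 in HCN4, and 45.0% of all promoters held at least 1. In HCN3 they began 96, 52, 45 and 17 bases before the start site. In HCN4 they began 76 and 69 bases before it. GCGGGGGCG was found 2 times in HCN2 and in 5.07% of all promoters. On both strands, 6 further motifs had no match in the 3 windows: the CCAAT box (34.6% of all promoters), the TATA box TATAAA (11.5%), the E-box CACGTG (7.26%), the AP-1 motif TGACTCA (4.95%), the cyclic AMP response element TGACGTCA (1.85%) and a second EGR1 motif, GCGTGGGCG (0.795%). These matches describe letters only and say nothing of factors at these promoters.

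Values are deposited log2 expression levels, and levels of different genes were not compared because each probe set has its own brightness. A gene was left out of the test as dim if its mean over the 4 arrays was under 3.82, which is the 40th percentile over probe sets. Of the 18 genes, 11 passed this filter and 7 did not. The arrays correlated at r = 0.995 within mock, 0.994 within origamicin and 0.991 to 0.992 between groups, over the 11883 genes tested. The 9 noradrenergic markers examined, PHOX2A, HAND2, GATA3, ISL1, TH, DBH, DDC, CHGA and STMN2, all passed the filter. Of these, DBH, STMN2, HAND2, GATA3 and ISL1 stood above 11 on every array. TH, which defines catecholamine cells, ran from 5.52 to 5.82 over the 4 arrays.

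**Figure D1:**
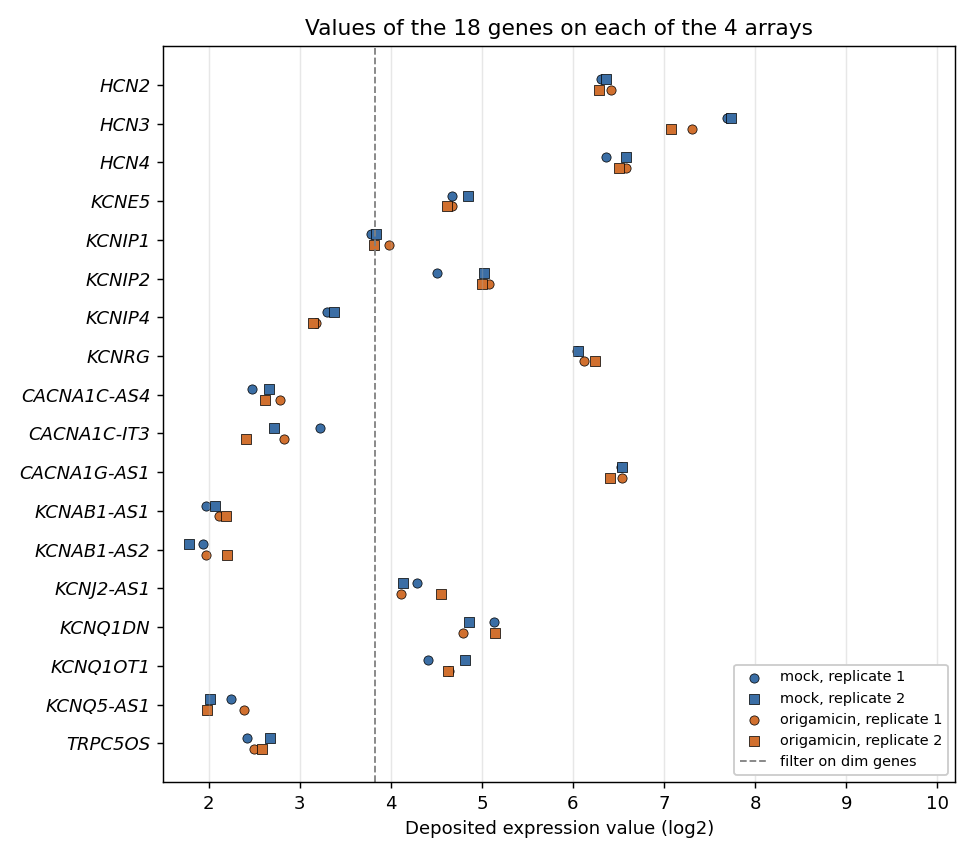
Deposited log2 value (horizontal axis) of the 18 genes on each array, with mock in blue, origamicin in orange, circles for replicate 1 and squares for replicate 2; the dashed line is the filter on dim genes at 3.82. HCN3 is the gene in the top group whose treated arrays (7.30 and 7.08) lie clear of its mock arrays (7.69 and 7.74), and 7 genes lie left of the line.

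Among the HCN genes, HCN3 was lower after origamicin and the other two lay near their mock level. HCN3 read 7.69 and 7.74 on the mock arrays and 7.30 and 7.08 on the origamicin arrays. Both treated arrays lay below both mock arrays, and the treated pair spread more widely. The means were 7.72 ± 0.03 in mock and 7.19 ± 0.16 after origamicin (SD, n = 2 each). HCN3 was 1.44-fold lower, a log2 change of -0.53 ± 0.10 (moderated SE, 95% interval -0.79 to -0.26).

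The adjusted p of HCN3 was 0.17 in limma (Benjamini-Hochberg over the 11883 genes), short of the threshold of 0.05, with an unadjusted p of 0.0044. No gene of the array passed in that fit (0% called), the smallest adjusted p of any gene being 0.095, and 1950 genes had an unadjusted p under 0.05. In the limma fit that lets the spread vary with intensity, HCN3 passed with an adjusted p of 0.024, as did 4.3% of the genes tested. By size, 224 genes (1.89%) differed by at least as much as HCN3 in either direction, and 99 were lower by at least as much. Without origamicin replicate 1 the change was -0.64, and without replicate 2 it was -0.41.

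HCN2, abundant in the brain, read 6.30 and 6.36 in mock and 6.42 and 6.28 after origamicin. The groups overlapped, and the change was 0.02 ± 0.08 (95% interval -0.19 to 0.23). HCN4, the main HCN subunit of the cardiac pacemaker, read 6.36 and 6.58 in mock and 6.58 and 6.51 after origamicin. These groups overlapped as well, with a change of 0.07 ± 0.10 (95% interval -0.19 to 0.34). Neither interval reaches the central estimate for HCN3. HCN2 and HCN4 had adjusted p-values of 0.95 and 0.76 in limma.

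HCN3 was also set against its relatives by the difference between 2 genes on the same array. HCN2 minus HCN3 stood at -1.39 and -1.38 in mock and at -0.88 and -0.79 after origamicin, so the change of HCN2 exceeded that of HCN3 by 0.54. HCN3 minus HCN4 moved from 1.33 and 1.16 to 0.72 and 0.57, a shift of -0.60. In both pairs the mock and treated arrays did not overlap, which largely restates the values of HCN3 alone. The share over other gene pairs was not computed. An exact two-sided permutation test gave p = 0.33 for each (0.50 adjusted over the 3 pairs). That is the smallest p this test allows for 2 arrays against 2. It cannot pass the threshold, so it does not answer whether HCN3 differed from its relatives. HCN2 against HCN4 shifted by -0.06 (exact permutation p = 0.67, adjusted 0.67).

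Cell type markers moved with the same groups as HCN3. The summed log2 level of the 9 noradrenergic markers ran from 92.3 to 92.8 in mock and from 90.4 to 90.5 after origamicin, with 8 of 9 lower, where 47.8% of all genes were higher. With an intensity trend 3 of them fell (CHGA, DDC and ISL1), where 2.16% of all genes did. The summed level of 7 mesenchymal neuroblastoma markers ran from 43.6 to 43.9 in mock and from 45.8 to 46.7 after origamicin, and 4 of the 6 tested rose with an intensity trend, where 2.14% of all genes did. Of 4 immune markers CD68 and CD14 were measured, with a summed level from 9.82 to 10.4 in mock and from 11.3 to 11.5 after origamicin. CD68, a lysosomal membrane protein abundant in macrophages, stood at 0.84 ± 0.15 (limma adjusted p = 0.17) and rose with an intensity trend (adjusted p = 0.024). Of the 4 Schwann or glial markers and 1 fibroblast marker tested, none had an unadjusted p under 0.05. The part of these markers in the HCN3 value was not tested. In bulk RNA, fewer cells with a transcript and less of it per cell cannot be told apart. In RefSeq HCN3 overlaps PKLR, a pyruvate kinase gene that was not analysed here, so its probes may also read PKLR transcripts.

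**Figure D2:**
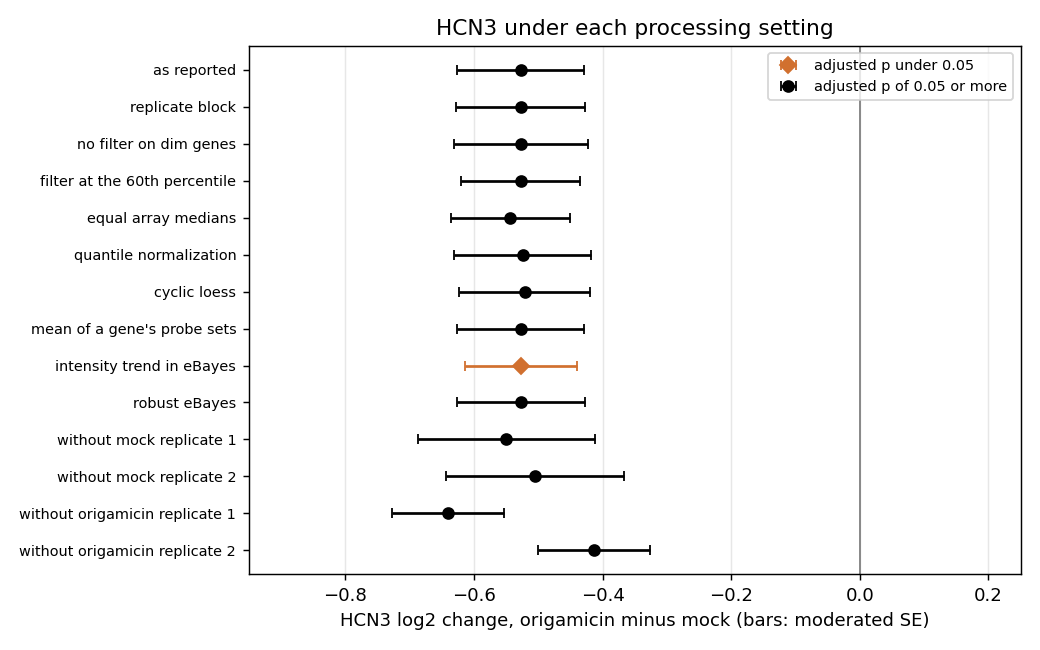
Log2 change of HCN3, origamicin minus mock (horizontal axis), under each processing setting; points are estimates, bars are the moderated SE, and the orange diamond marks an adjusted p under 0.05. Estimates run from -0.64 to -0.41, both with 1 array left out, where the sign could not turn because the groups do not overlap. The diamond appears only for the fit with an intensity trend.

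The partners and regulators of potassium channels showed no difference that passed. Of 5 such genes 4 were tested: 3 were higher and 1 lower, with changes from -0.12 to 0.28. KCNIP2, a calcium-binding partner of Kv4 channels known for its part in the transient outward current of the heart, read 4.50 and 5.02 in mock and 5.07 and 5.00 after origamicin. The first mock array lay below the other 3, and the groups overlapped. The change was 0.28 ± 0.19 (95% interval -0.22 to 0.77, limma adjusted p = 0.52), the widest interval of the 11 genes. Without mock replicate 1 it was 0.02 and without mock replicate 2 it was 0.54. KCNIP2 was the one gene with more than 1 named probe set: the dimmer set read 4.38 and 4.90 in mock and 4.89 and 4.49 after origamicin, a difference of 0.05.

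KCNRG, a soluble protein that resembles the assembly domain of voltage-gated potassium channels and can hinder their assembly, read 6.05 and 6.06 in mock and 6.13 and 6.24 after origamicin. Both treated arrays lay above both mock arrays, by a margin smaller than the gap between the treated arrays. The change was 0.13 ± 0.07 (95% interval -0.06 to 0.33, limma adjusted p = 0.45). In RefSeq KCNRG overlaps TRIM13 and DLEU2, so its probes may also read their transcripts.

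KCNE5, which inhibits currents through KCNQ1 channels, read 4.68 and 4.84 in mock and 4.67 and 4.62 after origamicin. The groups were separate, but the first mock array and the first treated array nearly coincided. The change was -0.12 ± 0.09 (limma adjusted p = 0.55). KCNIP1, another calcium-binding Kv4 partner, read 3.79 and 3.84 in mock and 3.98 and 3.81 after origamicin. Its mean of 3.86 sits just above the filter at 3.82, and its change was 0.08 ± 0.09 (limma adjusted p = 0.69). KCNIP4, of the same family, was left out as dim, at 3.30 and 3.38 in mock and 3.18 and 3.15 after origamicin.

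**Figure D3:**
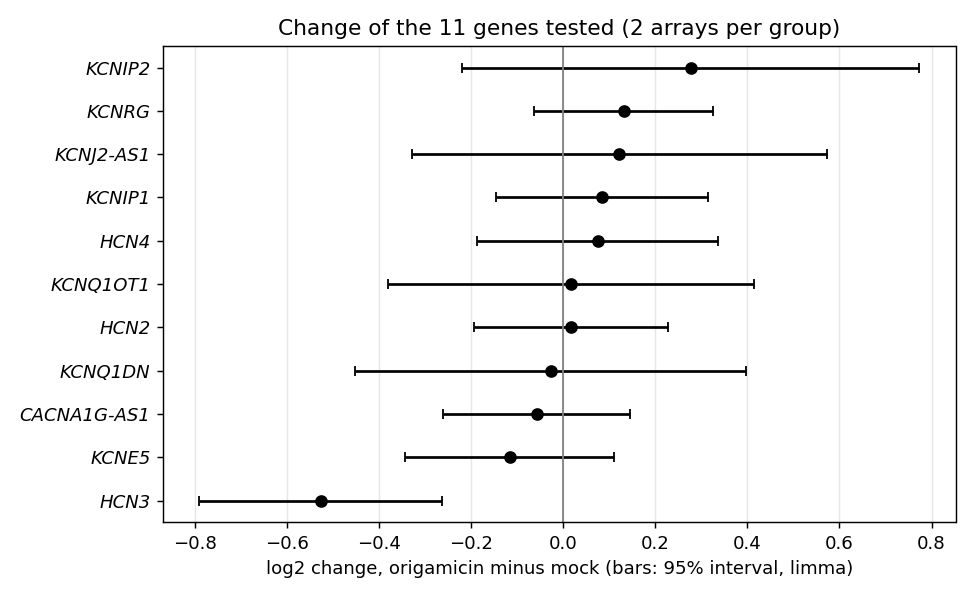
Log2 change, origamicin minus mock (horizontal axis), of the 11 genes that passed the filter; points are limma estimates over 2 arrays per group and bars are 95% intervals. The interval of HCN3 (-0.79 to -0.26) lies wholly below 0, and the other 10 intervals include 0.

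The transcripts named after channel genes showed no difference that passed. Of 9 long noncoding RNAs, 4 were tested, 2 higher and 2 lower, with changes from -0.06 to 0.12. CACNA1G-AS1, antisense to the gene of a T-type calcium channel pore, was the steadiest in mock, at 6.53 on both arrays, and read 6.54 and 6.41 after origamicin. Its change was -0.06 ± 0.08 (95% interval -0.26 to 0.15). KCNJ2-AS1, named for the gene of an inward rectifier, read 4.28 and 4.14 in mock and 4.11 and 4.55 after origamicin. Its treated arrays enclosed its mock arrays, with a change of 0.12 ± 0.17.

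KCNQ1OT1 and KCNQ1DN come from the imprinted KCNQ1 domain, where KCNQ1OT1 is made from the paternal copy and silences neighbouring genes on it. KCNQ1OT1 read 4.41 and 4.82 in mock and 4.64 and 4.63 after origamicin, so the treated arrays lay between the mock arrays. Its change was 0.02 ± 0.15 (95% interval -0.38 to 0.42). KCNQ1DN read 5.13 and 4.86 in mock and 4.80 and 5.14 after origamicin, and here the treated arrays enclosed the mock arrays. Its change was -0.03 ± 0.16 (95% interval -0.45 to 0.40).

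The 7 dim genes were 5 long noncoding RNAs (CACNA1C-AS4, CACNA1C-IT3, KCNAB1-AS1, KCNAB1-AS2 and KCNQ5-AS1), TRPC5OS and KCNIP4. Their values ran from 1.79 to 3.38 over all arrays. Just below the filter came KCNIP4, then CACNA1C-IT3 at 3.22 and 2.72 in mock and 2.83 and 2.41 after origamicin, and CACNA1C-AS4 at 2.48 and 2.67 against 2.79 and 2.62. Group means of the 7 differed by at most 0.35, and no test was made. By RefSeq, 15 of the 18 genes overlap another gene, so for antisense and intronic transcripts, signal from the host transcript cannot be told apart: the strand read by the probes is not given in the sources used here.

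Across the 11 genes tested, 7 were higher and 4 lower, where 47.8% of all genes were higher, and 9 differed by less than 0.15 in size. The median log2 change was 0.02, beside -0.01 over the 11883 genes, and the median size of change was 0.08, beside 0.11. One of the 11, HCN3, had an unadjusted p under 0.05, where 16.4% of all genes did. The groups did not overlap for 3 of the 11 (HCN3 and KCNE5 lower, KCNRG higher). Nor did they overlap for 48.6% of all genes, 22.7% higher and 25.8% lower. Neither share stands above that of the genes at large. Standard errors ran from 0.07 to 0.19. Outside HCN3, the outer bounds of the intervals lay between 0.23 and 0.77 in size.

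Genes that work with these channels were described from 3 lists. The list of 33 partners and regulators had 20 tested genes, 10 higher and 10 lower, with a median change of 0.01. At an unadjusted p under 0.05, 2 were higher and 3 lower, where 7.99% and 8.42% of all genes were. With an intensity trend 1 fell and none rose, where 2.16% and 2.14% of all genes did. That gene was GEM, a small GTPase that inhibits voltage-gated calcium channels, at 7.91 and 7.74 in mock and 7.34 and 7.49 after origamicin. GEM was 1.33-fold lower (log2 change -0.41 ± 0.10, limma adjusted p = 0.20, and 0.049 with an intensity trend). RRAD, REM1 and REM2, on the same list, were higher, at 0.23 ± 0.08 (limma adjusted p = 0.29), 0.14 ± 0.08 and 0.04 ± 0.07. RRAD lay near the filter, at 3.88 and 3.72 in mock and 4.05 and 4.01 after origamicin. None of RRAD, REM1 and REM2 passed in either fit.

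DPP6, a membrane partner that joins KCNIP proteins on Kv4 channels, read 7.14 and 7.11 in mock and 6.89 and 6.73 after origamicin. Both treated arrays lay below both mock arrays, with a change of -0.32 ± 0.08 (limma adjusted p = 0.21, and 0.088 with an intensity trend). FGF14, an intracellular protein that binds voltage-gated sodium channels, stood at -0.23 ± 0.08 (limma adjusted p = 0.28). OSTM1, the partner subunit of the lysosomal chloride transporter CLCN7, stood at 0.30 ± 0.07 (limma adjusted p = 0.18, and 0.079 with an intensity trend). These 3 did not pass in either fit.

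Of 22 other channels of the superfamily, 15 had a named probe set, and 7 of these were dim. The 8 tested were 6 higher and 2 lower, with a median change of 0.09. The largest change was that of CNGA2, at 0.71 ± 0.35 (limma adjusted p = 0.41). CNGA2 read 4.26 and 3.32 in mock and 4.72 and 4.28 after origamicin, close to the filter. The lysosomal TRP channel MCOLN1 had the only unadjusted p under 0.05 of the 8, where 7.99% of all genes were higher at that level. It stood at 8.01 on both mock arrays and 8.28 and 8.25 after origamicin. Its change was 0.25 ± 0.06 (limma adjusted p = 0.20), and it rose with an intensity trend (adjusted p = 0.048), as 2.14% of all genes did. Of 23 genes of calcium stores, store-operated entry and calcium pumps, 10 had a named probe set, none of them a calcium pump. Of these 10, 9 were tested, 6 higher and 3 lower, with a median of 0.06. None passed in either limma fit, and 2 of 9 were higher at an unadjusted p under 0.05, where 7.99% of all genes were. ORAI3, a pore subunit of store-operated calcium entry, read 6.50 and 6.82 in mock and 7.11 and 7.09 after origamicin (0.44 ± 0.12, limma adjusted p = 0.23). STIM1, the calcium sensor of the endoplasmic reticulum that opens ORAI pores, read 6.62 and 6.57 in mock and 6.78 and 6.82 after origamicin (0.21 ± 0.06, limma adjusted p = 0.25).

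**Figure D4:**
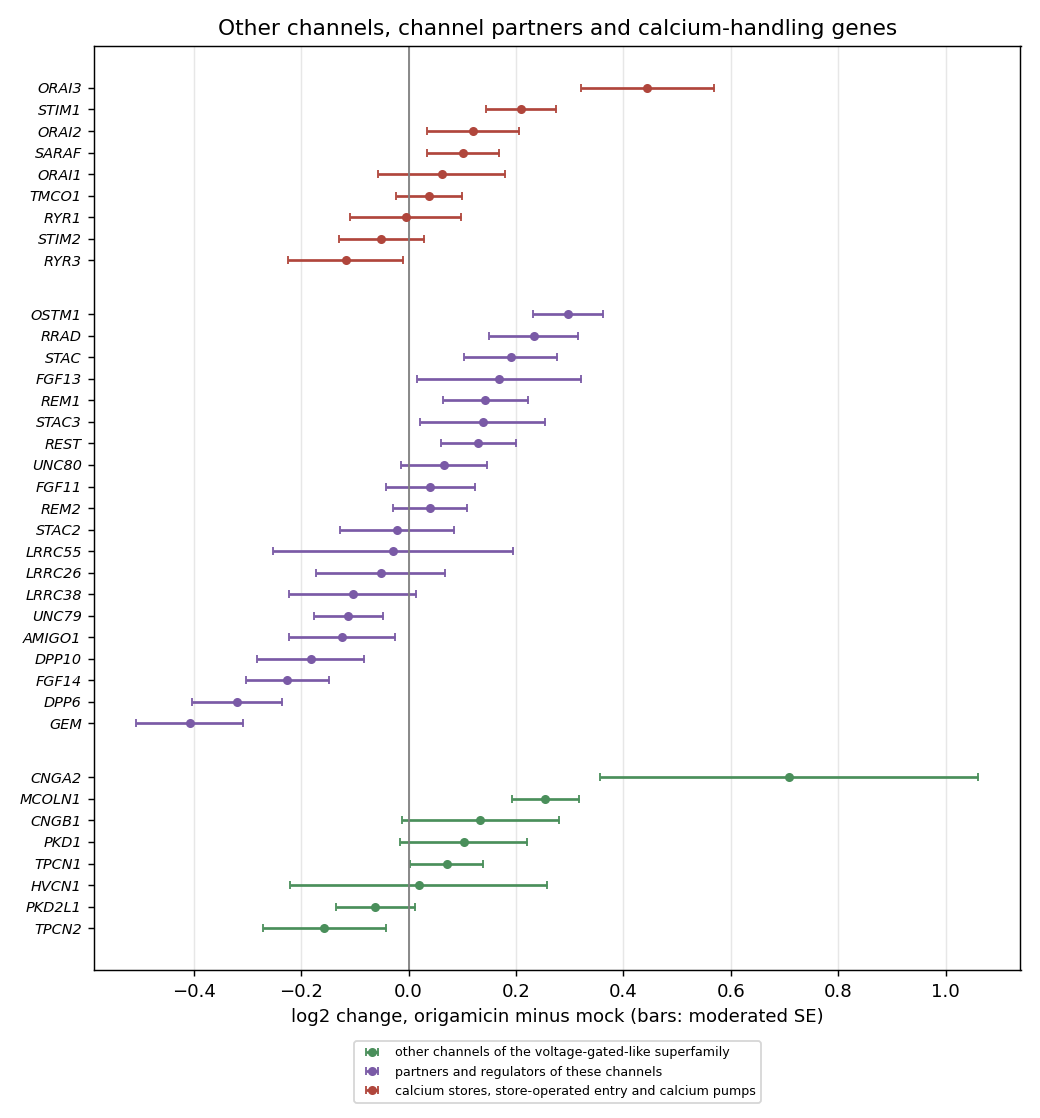
Log2 change, origamicin minus mock (horizontal axis), of the tested genes in 3 related lists: calcium stores and entry (red, 9 genes), channel partners and regulators (purple, 20 genes) and other channels (green, 8 genes). Points are limma estimates over 2 arrays per group and bars are the moderated SE; GEM (-0.41) and DPP6 (-0.32) are lowest among the partners, and OSTM1 (0.30) is highest.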

How the data were processed

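The authors deposited log2 expression per probe set. The submitters' processing notes name RMA and limma but give no version, and the genome build is not given in the sources used here. Array medians ran from 4.37 to 4.42, so values were not normalized again. Of 53617 probe sets, 16098 had 1 gene symbol in the platform annotation, none had several, and 37519 were unnamed. All 16098 gene identifiers matched RefSeq, with no symbol changed. Per gene the brightest probe set over the 4 arrays was kept. The comparison, origamicin minus mock, used limma 3.58.1 (R 4.3.3), with lmFit and then eBayes under 1 prior variance and two-sided tests, on 11883 genes, with Benjamini-Hochberg adjustment over all of them. The fits were tested on simulated data whose noise depended on intensity alone, and were checked there only for bias and for p-values of unchanged genes. The number of arrays limits the precision.

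The rule for named genes took the 12 tested genes with the smallest p on each side, the leader of each role group, genes past the threshold with an intensity trend and the 3 nearest the filter on either side, and up to 4 genes with an unadjusted p under 0.05 per related list. Among the ion channel genes this came to every gene tested. Beyond the rule, RRAD, REM1 and REM2 were named beside GEM, and CNGA2 beside MCOLN1. Genes and lists were chosen with earlier results of these data known. Alternatives were a replicate block, other filters, scalings, probe set rules and eBayes settings, each array left out, and a looser threshold. Promoter sequences are RefSeq's (GRCh38.p14), held for 17 of the 18 genes.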

Additional observations from a re-analysis of the deposited data

How the results depend on the processing

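No gene of the array passed an adjusted p of 0.05 in limma, and 92 passed with the filter at the 60th percentile, 511 with an intensity trend and 53 at an adjusted p under 0.1. Of the ion channel genes none passed, except 1 (HCN3) with an intensity trend. The count of these genes at an unadjusted p under 0.05 was 1, and 1 to 2 when 1 array was left out. It was 2 without mock replicate 2, where KCNIP2 joined HCN3, and without origamicin replicate 1, where KCNJ2-AS1 joined it. HCN3 kept its direction in all 13 alternatives, with changes from -0.64 to -0.41. The replicate block, other filters, mean of probe sets and eBayes settings left its change at -0.53, so they do not test its direction. With 1 array left out the sign could not turn, because its groups do not overlap. Only the scalings could turn it, and there the change ran from -0.54 to -0.52. With no array left out, its unadjusted limma p stayed under 0.05, and its adjusted p-values ran from 0.024 to 0.30.

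The residuals of same-numbered arrays correlated at -0.02, so the numbers were not taken to pair the arrays. With the replicate block, 0 genes passed, and HCN3 stood at -0.53 (limma adjusted p = 0.30).

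Directions of the small changes were not stable. With quantile normalization KCNQ1OT1 turned to -0.0031. When 1 array was left out, values ran from -0.12 to 0.0095 for CACNA1G-AS1, from -0.052 to 0.085 for HCN2, from -0.033 to 0.18 for HCN4, from -0.0021 to 0.17 for KCNIP1, from -0.10 to 0.34 for KCNJ2-AS1, from -0.20 to 0.14 for KCNQ1DN and from -0.19 to 0.22 for KCNQ1OT1. A fit with 1 array in a group assumes that it varies like the other group. KCNIP2 (0.02 to 0.54), KCNRG (0.07 to 0.19) and KCNE5 (-0.20 to -0.03) kept their direction. For KCNRG and KCNE5, leaving out 1 array could not turn it, because their groups did not overlap. The filter at the 60th percentile removed KCNE5, KCNIP1, KCNIP2, KCNJ2-AS1, KCNQ1DN and KCNQ1OT1, which have no value there. The cause of these moves was not tested.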
